A study of Rattus norvegicus with 4 samples.

Results

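The genes described here are 10 of the 13 protein genes of the rat mitochondrial genome, measured by RNA sequencing in cultured cortical neurons from rat embryos of day 18. They were picked by name from the mitochondrial protein genes, by a rule that uses no measured value. The choice was made with earlier results of these data known. Of the 10 listed symbols 9 matched a row of the deposited gene table. The remaining gene, Mt-co3, stands there as Mt-cox3 and was matched by its description, so that 10 of 21648 gene identifiers are described. The cells, bought as embryonic rat cortex from a commercial supplier per the labels, received either the solvent DMSO or topotecan, an inhibitor of topoisomerase I, with 2 libraries per treatment. No genetic change is named for either group, and neither dose nor exposure time could be learned from the sources used here. Nothing in the labels says that the replicates came from separate cultures, so p-values measure only how these samples differ, which may be technical spread.

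Mitochondria keep a small circular genome that codes for core subunits of respiratory complexes I, III and IV and of the ATP synthase, together with the ribosomal and transfer RNAs needed to translate them. A single RNA polymerase, POLRMT, copies each strand as a long precursor, and the precursors are cut into messengers, mostly at the transfer RNAs between them. All but one of the protein genes are read from the precursor of the heavy strand. Mt-nd6 alone is read from the light strand, opposite to and beside Mt-nd5, and its messenger is known for lacking a long poly(A) tail. Among the topoisomerases found in mitochondria is TOP1MT, a nuclear-encoded relative of the nuclear enzyme that topotecan inhibits. Neurons depend on the respiratory chain for most of their energy.

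The libraries held 27347410 and 22957786 gene counts in DMSO (replicates 1 and 2) and 31181382 and 25459488 in topotecan. Each member had between 3712 and 331680 counts per library, the fewest for Mt-nd6. Astrocyte, oligodendrocyte and progenitor markers were far lower with topotecan. The summed level of 10 astrocyte markers was 5580 and 5695 CPM (counts per 1000000 library counts, after TMM scaling of the libraries) in DMSO and 537 and 579 CPM in topotecan, and all 10 fell. All 8 oligodendrocyte lineage markers (3961 and 4255 against 123 and 110 CPM, summed) and all 5 tested progenitor markers (356 and 337 against 9.66 and 8.53 CPM) fell too. The 12 pan-neuronal markers summed to 19737 and 17866 CPM in DMSO and 20512 and 21888 CPM in topotecan. Of these 4 rose and 3 fell, with log2 fold changes from -1.53 to 0.39, and Tubb3, the most abundant by counts, rose by 0.35. Of 6 glutamatergic neuron markers 5 rose and 0 fell (median log2 fold change 0.60). Of 6 interneuron markers 3 rose and 2 fell (median 0.32). Over all tested genes 16.2% were higher and 23.5% lower. Of 5 microglia markers with a row 4 were at 0 in every library, Cx3cr1 and Aif1 among them, and no endothelial marker reached 20 counts. In these bulk samples fewer cells of a type and less RNA per cell cannot be told apart. The part of these cell types in the mitochondrial values was not tested.

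With topotecan 2 of the 10 mitochondrial messengers fell and none rose, also at an unadjusted p under 0.05 in edgeR or under DESeq2. Those that fell were Mt-nd4 and Mt-nd6, both subunits of complex I, by 0.25 on the log2 scale each, a decrease of about 16%. Over all 12162 genes tested, 23.5% were lower and 16.2% higher at the same threshold (adjusted p under 0.05 in edgeR's quasi-likelihood test), so 2 of 10 lower and 0 of 10 higher is not above the background. The median log2 fold change of the members was -0.10, against -0.01 for all genes tested, and the members ranged from -0.25 to 0.04. The 95% intervals of all 10 lay between -0.43 and 0.19, a change of -25.8% to 14.4%. Changes of 2-fold in either direction are outside these intervals for every member. Each interval holds a change of 10% in at least 1 direction, but only that of Mt-cyb holds it in both directions.

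**Figure D1:**
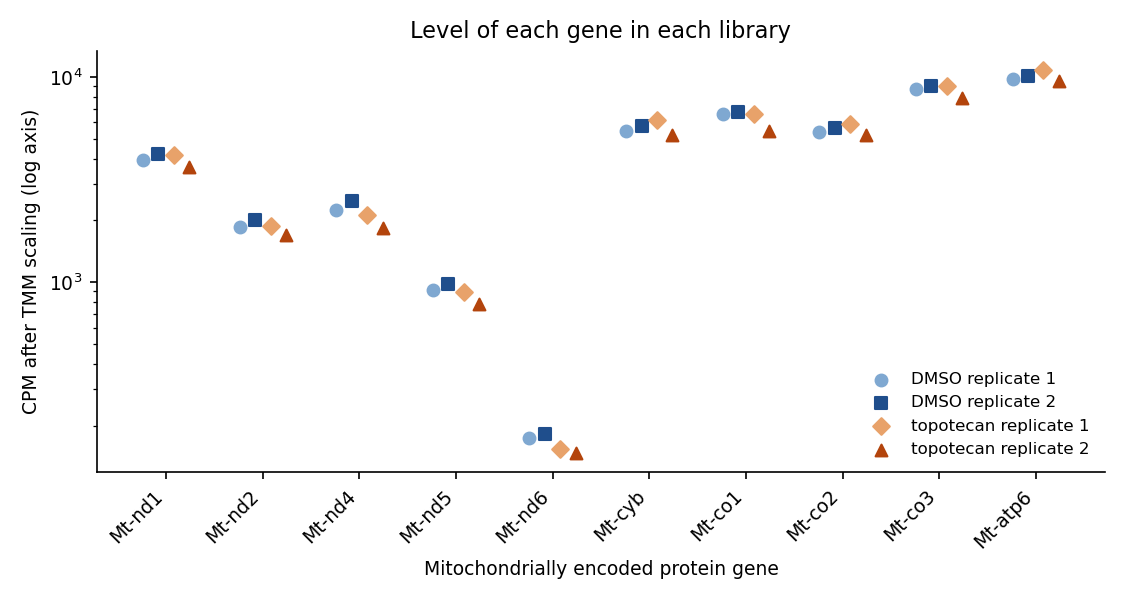
CPM after TMM scaling (log axis) of the 10 mitochondrially encoded genes in each of the 4 libraries; each point is 1 library, and levels of different genes are not corrected for length. Topotecan replicate 2 is the lowest of the 4 libraries for every gene, and for Mt-nd4, Mt-nd5 and Mt-nd6 both topotecan points lie below both DMSO points.

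Complex I, the NADH dehydrogenase that feeds electrons into the chain, has 5 members. Mt-nd4 (ENSRNOG00000029707), a proton-pumping subunit of the membrane arm, stood at 2238 and 2478 CPM in DMSO and 2120 and 1838 CPM in topotecan. The groups did not overlap, and its log2 fold change was -0.25 (SE 0.08, interval -0.43 to -0.08, edgeR adjusted p = 0.026). Mt-nd6 (ENSRNOG00000029042), the light-strand gene, also for a membrane-arm subunit, stood at 175 and 182 CPM in DMSO and 153 and 147 CPM in topotecan. Here too the groups were apart, with a log2 fold change of -0.25 (SE 0.08, interval -0.42 to -0.08, edgeR adjusted p = 0.024). Both calls rest on single libraries. Without topotecan replicate 2 the adjusted p was 0.319 for Mt-nd4 and 0.244 for Mt-nd6. It was 0.079 for Mt-nd4 without DMSO replicate 2 and 0.131 for Mt-nd6 without topotecan replicate 1.

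The other 3 complex I members did not pass. Mt-nd5 (ENSRNOG00000029971), another pumping subunit and the neighbour of Mt-nd6 on the opposite strand, had 912 and 976 CPM in DMSO and 890 and 785 CPM in topotecan. Its groups were also separate, at a log2 fold change of -0.17 (SE 0.08, interval -0.34 to 0.00, edgeR adjusted p = 0.105). Without DMSO replicate 1 it passed (adjusted p = 0.029). Mt-nd2 (ENSRNOG00000031033), also of the membrane arm, had 1862 and 2019 CPM in DMSO and 1876 and 1691 CPM in topotecan, with overlapping groups and a log2 fold change of -0.12 (interval -0.29 to 0.04). Mt-nd1 (ENSRNOG00000030644), which lies where the membrane arm meets the quinone site, had 3953 and 4210 CPM in DMSO and 4152 and 3642 CPM in topotecan, again overlapping, at -0.07 (interval -0.23 to 0.10). Its sign turned without topotecan replicate 2 (0.03). Groups that do not overlap were thus found for 3 members, all of them lower in topotecan, where 36.9% of all tested genes were lower and 33.7% higher without overlap.

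Mt-cyb (ENSRNOG00000031766), cytochrome b and the one mitochondrially encoded subunit of complex III, had 5459 and 5783 CPM in DMSO and 6150 and 5220 CPM in topotecan. The topotecan libraries lay on either side of both DMSO libraries, and the log2 fold change was 0.02 (interval -0.16 to 0.19, edgeR adjusted p = 0.891). Mt-atp6 (ENSRNOG00000031979), the subunit of the ATP synthase that carries protons past its rotor, had 9748 and 10090 CPM in DMSO and 10822 and 9602 CPM in topotecan. It showed the same pattern, with topotecan replicate 1 highest and replicate 2 lowest, and a log2 fold change of 0.04 (interval -0.11 to 0.19, edgeR adjusted p = 0.671).

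Complex IV, cytochrome c oxidase, has its 3 catalytic-core subunits from the mitochondrial genome. Mt-co1 (ENSRNOG00000034234), which holds the site of oxygen reduction, had 6599 and 6712 CPM in DMSO and 6616 and 5457 CPM in topotecan, a log2 fold change of -0.14 (interval -0.32 to 0.04, edgeR adjusted p = 0.199). Topotecan replicate 2 alone was low, and without replicate 1 of that group Mt-co1 passed (-0.28, adjusted p = 0.020). Mt-co2 (ENSRNOG00000030371), which takes electrons from cytochrome c, had 5370 and 5657 CPM in DMSO and 5909 and 5186 CPM in topotecan, at 0.01 (interval -0.15 to 0.17). Mt-co3 (ENSRNOG00000030700), the third core subunit, had 8745 and 9008 CPM in DMSO and 9003 and 7887 CPM in topotecan, at -0.07 (interval -0.23 to 0.08). The topotecan libraries of both genes spread beyond the DMSO values on one side or both, and neither gene passed.

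**Figure D2:**
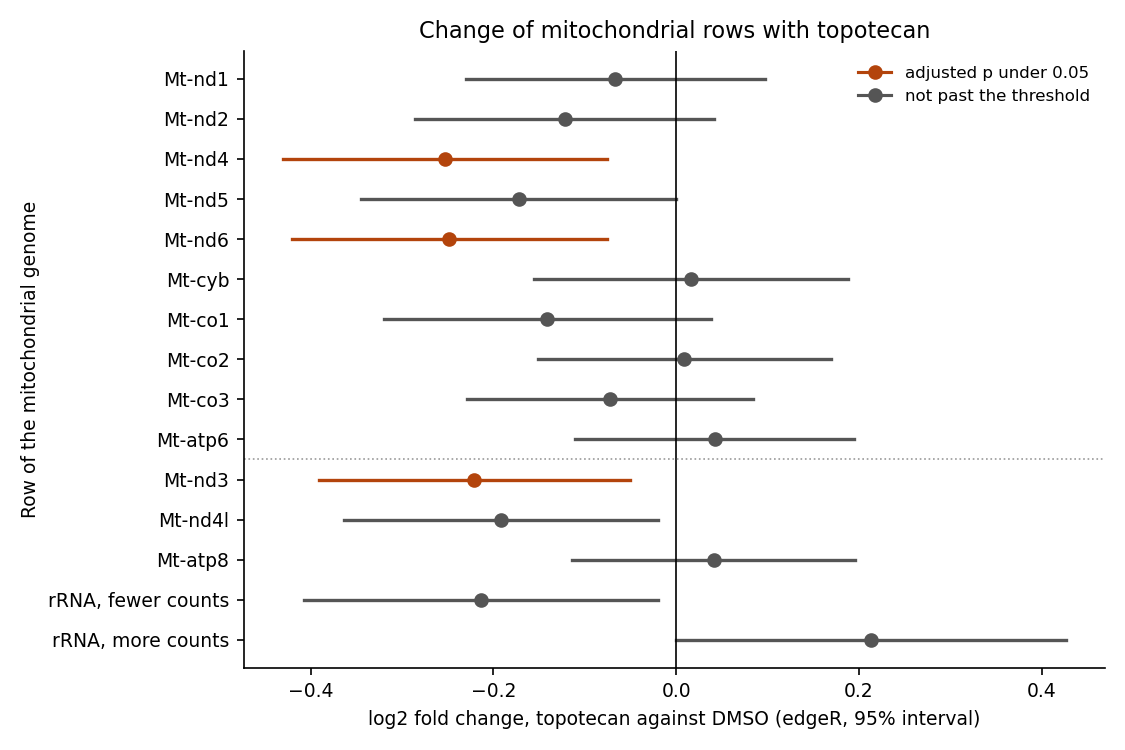
Log2 fold change of topotecan against DMSO (points, edgeR after TMM scaling) with 95% intervals (bars) for the 10 genes, and below the dotted line for the 3 other mitochondrial protein genes and the 2 mitochondrial rRNA rows. Mt-nd4, Mt-nd6 and Mt-nd3 are the rows past the threshold, and the interval of each of the 10 genes lies between -0.43 and 0.19.

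The members moved together from library to library. All 10 were higher in DMSO replicate 2 than in replicate 1, by a median of 0.08 on the log2 scale (0.02 to 0.15), and all 10 were higher in topotecan replicate 1 than in replicate 2, by a median of 0.19 (0.06 to 0.28). The gap between the topotecan libraries was widest for Mt-co1 and narrowest for Mt-nd6. How many of all tested genes show the same order of libraries was not counted. The heavy-strand members also share a precursor and are not independent of one another. The 10 genes took 4.54% and 4.79% of all counts in DMSO and 4.69% and 4.11% in topotecan. Wilson 95% intervals of these shares were at most 0.01 percentage points to either side, and they cover counting error only. The shares of the groups overlapped (difference in means -0.27 percentage points, exact 2-sided permutation p = 0.667, where 2 against 2 libraries cannot go below 0.333). Without topotecan replicate 2 the difference was 0.02.

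The light-strand gene was set against the heavy-strand genes within each library. Mt-nd6 had 3.89 and 3.88 counts per 1000 counts of the 9 heavy-strand members in DMSO and 3.22 and 3.56 in topotecan. The DMSO libraries nearly coincide and both topotecan libraries lie below them, replicate 1 further than replicate 2. The log2 ratio differed by -0.20 (exact 2-sided permutation p = 0.333, the smallest that 4 libraries can give). With all libraries scaled to the heavy-strand sum, edgeR gave Mt-nd6 a log2 change of -0.20 (SE 0.16, interval -0.51 to 0.12, adjusted p = 0.378). A difference between the strands was thus not shown. The SE of Mt-nd6 after TMM scaling was 0.08, so a difference of this size could hardly pass in the heavy-strand scaling. In the heavy-strand scaling no member was called in either direction, against 30.8% of all tested genes. The 9 heavy-strand members set this scaling themselves, so few calls among them follow from its choice. The lack of calls is therefore no result about the members.

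The size of the Mt-nd6 difference depended on the heavy-strand genes it was compared with. Against its neighbour Mt-nd5 it had 19.2 and 18.6 counts per 100 in DMSO and 17.2 and 18.8 in topotecan. These groups overlapped, and edgeR gave a log2 change of -0.07 (adjusted p = 0.738). Against the 4 heavy-strand complex I members the change was -0.11 (adjusted p = 0.614). No source used here states whether counting took account of the strand. Reads of Mt-nd5 and Mt-nd6 where these genes meet therefore cannot be told apart. If the strand was ignored, reads anywhere in Mt-nd6 may stem from the precursor of either strand, as may reads in the heavy-strand members. The Mt-nd6 row is thus not known to measure the light strand alone. Selection for poly(A) is not named either, which bears on Mt-nd6 with its lack of a long tail. Nuclear copies of mitochondrial sequence could share reads with any member.

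Each member was also compared with the other 9 together, which removes a shift common to all of them. None passed, with log2 changes from -0.21 for Mt-nd4 to 0.12 for Mt-atp6 and a lowest edgeR adjusted p of 0.338. The SE was 0.16 for Mt-nd4 and 0.17 for Mt-atp6, against 0.08 and 0.07 after TMM scaling. Shifts this small could therefore hardly pass in these fits. As a description, the shares of 9 members within the sum of the 10 did not overlap between treatments, 6 lower and 3 higher in topotecan. Per count of the 10 members, 31.5% of all tested genes were lower and 33.3% higher without overlap. Mt-nd4 made up 4.97% and 5.26% of the 10 in DMSO and 4.44% and 4.43% in topotecan. Mt-atp6 made up 21.6% and 21.4% in DMSO and 22.7% and 23.2% in topotecan. The largest relative shifts down were thus in Mt-nd4 and Mt-nd6, and the largest shift up was in Mt-atp6. The members of the heavy strand come from a shared precursor and are not independent of one another.

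**Figure D3:**
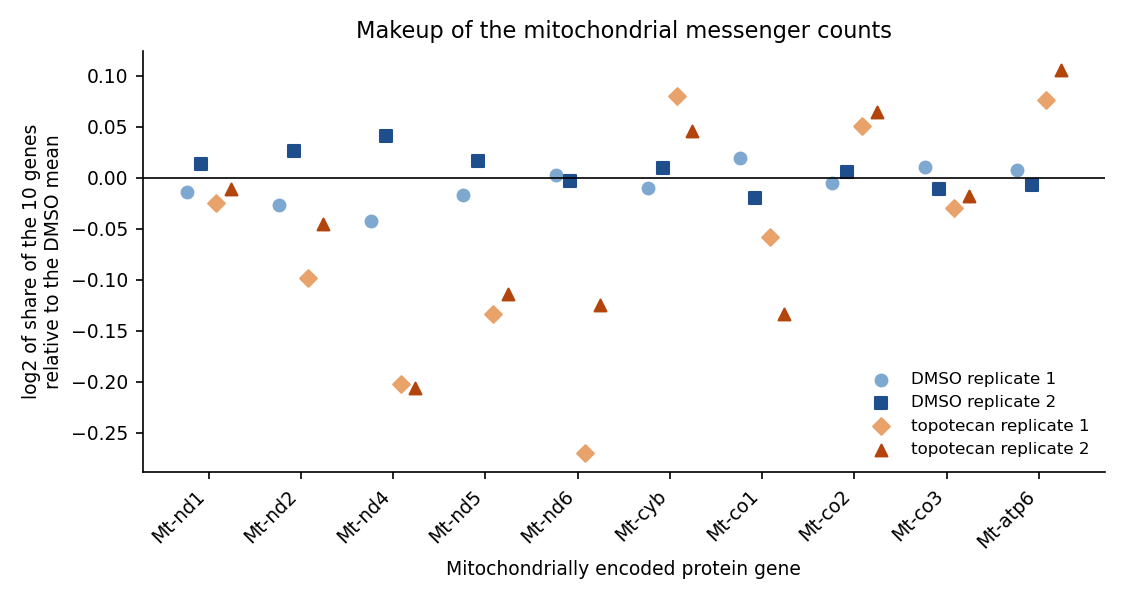
Share of each gene in the summed counts of the 10, as log2 relative to the mean of the DMSO libraries; each point is 1 library. Both topotecan points of Mt-nd4, Mt-nd5 and Mt-nd6 lie below both DMSO points, those of Mt-cyb, Mt-co2 and Mt-atp6 lie above, and only Mt-nd1 overlaps.

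The 3 other protein genes of the same genome were not among the members. Mt-nd3 (181 and 181 CPM in DMSO, 152 and 158 CPM in topotecan), a small complex I subunit, fell, with a log2 fold change of -0.22 (edgeR adjusted p = 0.040). Mt-nd4l, which shares a messenger with Mt-nd4, was at -0.19 (SE 0.08, adjusted p = 0.072). Mt-atp8, which shares one with Mt-atp6, was at 0.04 (SE 0.07, adjusted p = 0.684). Over the 13 genes, 3 of the 7 for complex I fell, with a median log2 fold change of -0.19. None of the 6 others passed, with a median of 0.01. Over all tested genes 23.5% were lower, and the difference between these groups of genes in calls or medians was not tested. This split was looked at after the values were seen. The complex I genes made up 21.1% ± 0.48 (SD, n = 2) of the counts of the 13 in DMSO and 19.8% ± 0.19 in topotecan, without overlap (exact 2-sided permutation p = 0.333).

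The table also holds 2 mitochondrial ribosomal RNA rows and 22 transfer RNA rows, which were examined after their values were seen. The more abundant ribosomal RNA row (ENSRNOG00000043866) had 22762 and 23034 CPM in DMSO and 30284 and 22809 CPM in topotecan. Topotecan replicate 1 stood apart and replicate 2 was at the DMSO level, and the row did not pass (log2 fold change 0.21, edgeR adjusted p = 0.104). The other row (ENSRNOG00000030478) had 345 and 328 CPM in DMSO and 316 and 265 CPM in topotecan (-0.21, adjusted p = 0.076). Per count of the 10 messengers the DMSO libraries had 0.513 and 0.496 ribosomal RNA counts and the topotecan libraries 0.642 and 0.557. The transfer RNA rows were sparse, 19 of them under 100 counts in every library. Of 12 tested 1 fell (ENSRNOG00000032997, 80 and 89 counts against 49 and 43, log2 fold change -1.02, SE 0.25, adjusted p = 0.0059) and none rose. Over all tested genes 23.5% were lower and 16.2% higher.

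Respiratory complexes I, III and IV and the ATP synthase combine these products with subunits encoded in the nucleus. Of 82 listed nuclear subunits of complexes I to V, cytochrome c included, 76 had a row and 74 were tested. Of these 17 rose and 8 fell, with a median log2 fold change of 0.11, where 16.2% of all tested genes were higher and 23.5% lower. The count that rose was 7 without topotecan replicate 1, 11 without topotecan replicate 2 and 37 without DMSO replicate 1, and the count that fell was 5 without either topotecan library. With libraries scaled to pan-neuronal markers none rose (edgeR), and with libraries scaled to the nuclear subunits themselves 3 did. The 10 mitochondrial members had 1.46 and 1.70 counts per nuclear subunit count in DMSO and 1.49 and 1.32 in topotecan. The groups overlapped (log2 difference -0.17, exact 2-sided permutation p = 0.667). In complex I, 9 of 33 nuclear subunits rose and 1 fell (median 0.17), beside 2 of 5 mitochondrial members that fell (median -0.17). Mitochondrial counts per nuclear count in complex I came to 1.09 and 1.31 in DMSO against 0.998 and 0.902 in topotecan, without overlap. In complex IV they came to 3.44 and 4.01 against 3.40 and 2.96, also without overlap, but with DMSO replicate 1 and topotecan replicate 1 almost equal. For both the exact permutation p was 0.333.

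In complex III and the ATP synthase these ratios overlapped between treatments. They were 1.68 and 1.97 against 1.95 and 1.65 counts of Mt-cyb per nuclear count in complex III, and 0.873 and 1.04 against 0.959 and 0.866 for Mt-atp6. Among nuclear complex III genes Cyc1, cytochrome c1, fell by 0.59 (SE 0.11, edgeR adjusted p = 6e-04) and Uqcrfs1, the iron-sulfur subunit, by 0.47 (SE 0.13). Uqcrq, a small subunit, rose by 0.29 (SE 0.08). In complex I Ndufs1, the largest iron-sulfur subunit, fell by 0.51 (SE 0.08, adjusted p = 1e-04), and the accessory subunits Ndufv3 and Ndufa8 rose by 0.45 (SE 0.09) and 0.44 (SE 0.08). In complex IV Cox5a rose by 0.36 (SE 0.11), Cox6a2 fell by 0.39 (SE 0.12), and Cox4i2, below 2 CPM in every library, fell by 3.20 (SE 0.59). Of the ATP synthase genes 4 rose and none fell, with Atp5mc1, which codes for the rotor ring subunit, at 0.34 (SE 0.08). Complex II, which has no mitochondrially encoded subunit, had 2 of 4 genes lower, Sdha (-0.27, SE 0.07) and Sdhd (-0.25, SE 0.08). Beside these counts, 23.5% of all tested genes were lower and 16.2% higher.

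**Figure D4:**
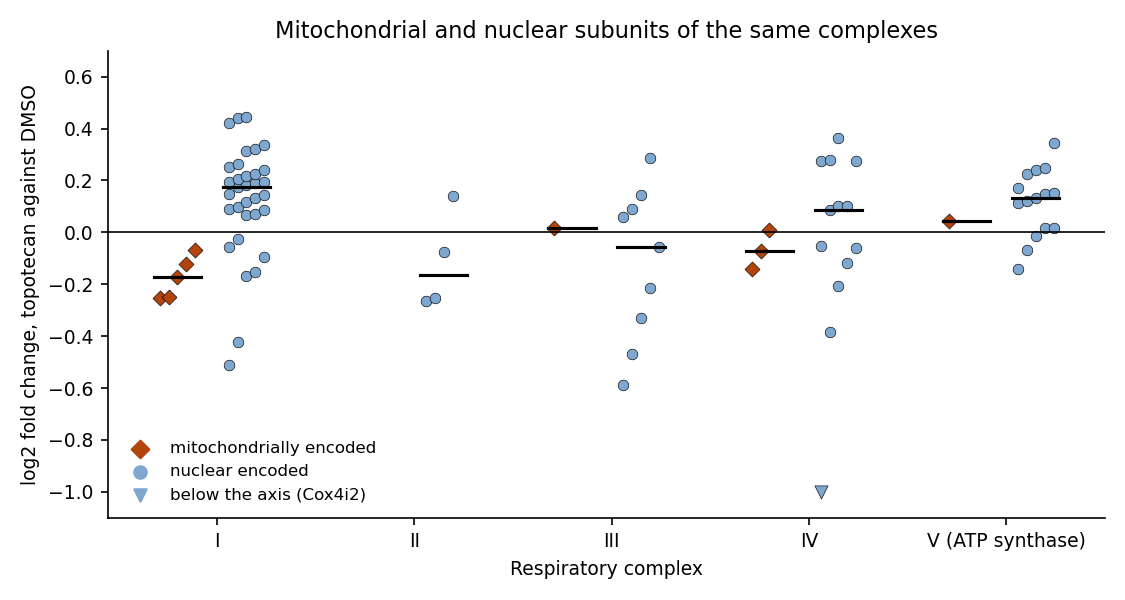
Log2 fold change of topotecan against DMSO for mitochondrially encoded members (diamonds) and tested nuclear subunits (circles) of each respiratory complex, with the median of each set as a bar; the triangle marks Cox4i2 of complex IV, which lies below the axis at -3.20. The 5 complex I members lie between -0.25 and -0.07, while the median of the nuclear complex I subunits is 0.17.

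Among the nuclear genes that make and process mitochondrial RNA, 7 of 31 tested rose and none fell (median log2 fold change 0.17). The count that rose is near the 16.2% of all tested genes that were higher, and 23.5% of all tested genes were lower. Without either topotecan library 2 rose, and 1 rose and 1 fell with libraries scaled to pan-neuronal markers. Top1mt, the mitochondrial topoisomerase I, had 61.6 and 59.0 CPM in DMSO and 87.5 and 81.3 CPM in topotecan and rose by 0.49 (SE 0.09, edgeR adjusted p = 0.0010). The row of Top1, the nuclear enzyme that topotecan acts on, held 1 and 2 counts in the DMSO libraries and 0 with topotecan, too few to test. Such a count is low for a widely expressed gene, and whether this row collects the reads of Top1 was not tested, so its level in these cells cannot be read from it. Tfb2m, which opens the promoter for the polymerase, rose by 0.41 (SE 0.12), and Mrpl12, a ribosomal protein that also binds the polymerase, by 0.25 (SE 0.09). Rexo2, an exonuclease that clears short RNA from mitochondria, rose by 0.56 (SE 0.09), Noa1 by 0.41 (SE 0.14) and the pseudouridine synthase gene Rpusd4 by 0.37 (SE 0.11). The log2 fold changes of the genes that did not pass were 0.24 for Polrmt (interval -0.16 to 0.63) and 0.16 for Tfam (-0.06 to 0.39), which packs mitochondrial DNA and starts transcription. They were -0.19 for the elongation factor gene Tefm (-0.47 to 0.10). Lrpprc and Slirp, partners that keep mitochondrial messengers stable, were at -0.08 (-0.29 to 0.14) and 0.17 (-0.08 to 0.41).

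Of 17 tested genes for replication and upkeep of mitochondrial DNA 5 rose and 2 fell. For this list and those below, the background over all tested genes is 16.2% higher and 23.5% lower. Polg2, the accessory subunit of the polymerase, rose by 0.58 (SE 0.15), and Mgme1, an exonuclease, and Lig3, a ligase shared with the nucleus, fell by 0.82 (SE 0.20) and 0.58 (SE 0.14). Of 8 tested nuclear regulators of mitochondrial biogenesis 3 fell and none rose. Ppargc1a, the coactivator PGC-1alpha, had 27.8 and 35.4 CPM in DMSO and 17.2 and 14.4 CPM in topotecan and fell (interval of the log2 fold change -1.31 to -0.69, edgeR adjusted p = 1e-04). Ppargc1b fell by 0.82 (SE 0.17) and Creb1 by 0.58 (SE 0.18). Of 32 tested assembly factors 5 rose and 2 fell, among them Cox18 (0.61, SE 0.13), Atpaf1 (-0.87, SE 0.18) and Coa5 (-0.75, SE 0.25).

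Calls on the members depended on the scaling of the libraries. With libraries scaled to 12 pan-neuronal markers, 5 of the 10 fell, namely Mt-nd2, Mt-nd4, Mt-nd5, Mt-nd6 and Mt-co1, where 29.4% of all tested genes were lower. Tubb3 held 9511 of 19737 and 7676 of 17866 CPM of these markers in DMSO. In topotecan it held 10256 of 20512 and 11705 of 21888 CPM. It rose itself by 0.35 (edgeR adjusted p = 0.0087), so scaling to these markers leans heavily on Tubb3. That scaling moved the median of all genes by -0.17, and the share of lower genes among all calls from 59.2% to 85.3%. Scaled to the nuclear respiratory subunits, whose use moved the median by -0.12 and that share to 79.8%, Mt-nd4 and Mt-nd6 fell again, where 26.1% of all tested genes were lower. In both scalings Mt-cyb, Mt-co2 and Mt-atp6 turned from just above to just below 0. Relative to the median of all genes, 7 members were below it and 3 above it in each of these 3 scalings. A new scaling shifts all genes by nearly the same amount, so this sameness holds almost by construction.

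**Figure D5:**
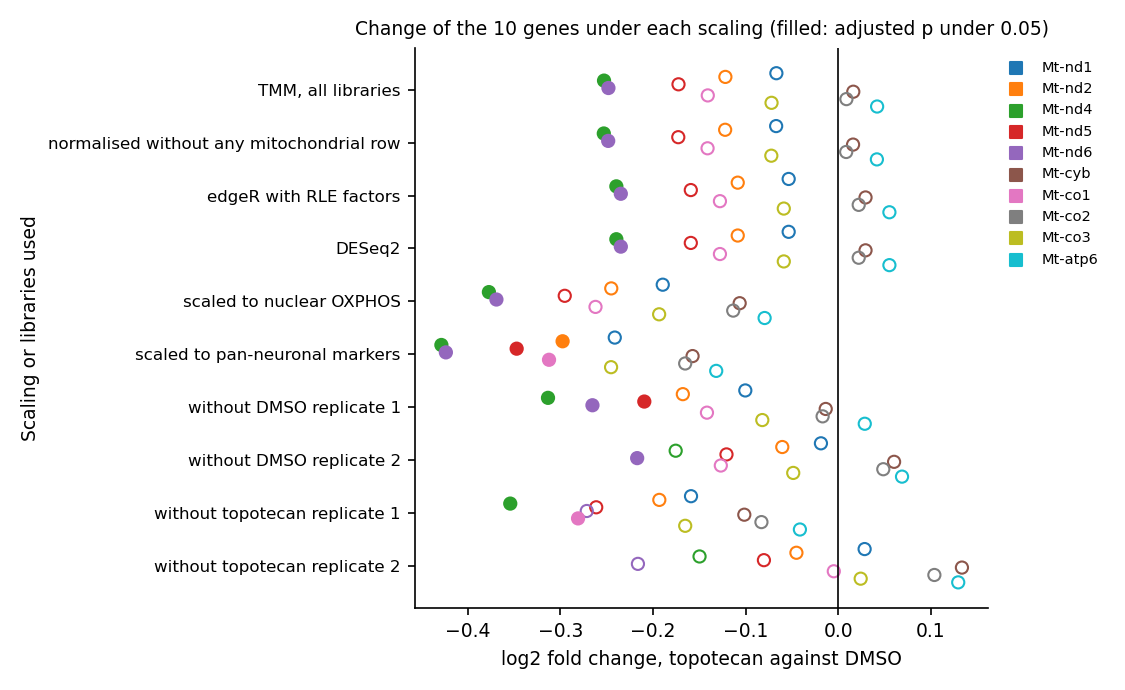
Log2 fold change of each of the 10 genes (colours) under each scaling or set of libraries (rows); filled points have an adjusted p under 0.05. Mt-nd4 and Mt-nd6 are filled in all rows that use the 4 libraries, and with topotecan replicate 2 left out no point is filled.

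The genes whose pattern over the 4 libraries lay nearest to the mean pattern of the members were Rab6a, Upf2, Gkap1, Xpot and Rbl2, with Euclidean distances of 0.01 to 0.03 in log2 CPM. None of them passed, which largely follows from this choice, as the treatments overlap in the mean pattern of the members. Rab6a, a small GTPase of the Golgi, had 94.2 and 99.8 CPM in DMSO and 97.0 and 84.4 CPM in topotecan. With 4 libraries many genes can share such a pattern: Mt-nd4l ranked 227th, Mt-nd3 1646th and Mt-atp8 2504th by this measure.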

How the data were processed

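For the 4 libraries the authors deposited raw counts per gene as 1 table. Per the submitters' processing notes STAR and edgeR were used. Genome build, annotation, counting tool and strand setting are named in none of the sources used here. Libraries were prepared, per the labels' protocols, with a kit for small RNA, although the table counts genes. Groups and replicate numbers come from the sample titles. The 22641 rows held 21648 gene identifiers, 792 of them repeated with identical counts and used once. 14 identifiers without a symbol held up to 0.00422% of counts. Replicates differed by more than sampling noise (chi-square per degree of freedom 13.0 in DMSO, 9.34 in topotecan).

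Genes were tested with edgeR 4.0.16 (R 4.3.3) by the quasi-likelihood F-test after TMM scaling and filterByExpr (minimum count 10, total 15), with Benjamini-Hochberg adjustment over 12162 genes, a threshold of 0.05 and 2 residual degrees of freedom. All members passed the filter. Standard errors were derived from F and the log2 fold change, and intervals are 95%. Mt-nd6 was also fitted with library sizes replaced by the summed heavy-strand counts. Single values per library were compared by exact permutation. The fit was tested on simulated data. DESeq2 1.42.0, limma-voom (limma 3.58.1), other scalings, no filter, a replicate block and leaving out each library were alternatives.

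The members and the 24 gene lists (242 of 265 entries had a row) were chosen with earlier results of these data known. Named genes were all members, other Mt- rows, 8 regulators, the 3 largest called changes per list and the 5 genes nearest in pattern (log2 of CPM plus 0.5). Gene lengths and sequences of the mitochondrial genome were not used here, so levels are compared between libraries and not between genes.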

Additional observations from a re-analysis of the deposited data

How the results depend on the processing

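Mt-nd6 relative to the heavy-strand members, its per-library ratio and the ratio of the members to nuclear subunits kept their sign under every alternative run. With all 4 libraries the first stayed short of the threshold, but in the heavy-strand scaling a difference of this size could hardly pass. That it did not pass is therefore no sign of a stable result. In the permutation tests of the others 4 libraries cannot pass the threshold. Leaving out 1 library at a time gave -0.27 to -0.12 for Mt-nd6 relative to the heavy strand. The members that fell numbered 2, but 5 with pan-neuronal scaling and 0 to 3 with 1 library left out. None rose under any setting. The share of counts on the members differed by -0.562 to 0.0195 percentage points. With 1 library left out the log2 fold change was -0.16 to 0.029 for Mt-nd1, -0.083 to 0.10 for Mt-co2, -0.17 to 0.024 for Mt-co3, -0.10 to 0.13 for Mt-cyb and -0.041 to 0.13 for Mt-atp6. Mt-co2, Mt-cyb and Mt-atp6 were at -0.11, -0.11 and -0.079 with nuclear respiratory scaling and at -0.17, -0.16 and -0.13 with pan-neuronal scaling. None of these passed. All genes higher numbered 1970, but 806 and 616 with those 2 scalings and 1208 to 2470 with 1 library left out. Nuclear subunits that rose numbered 17, but 3 and 0 with those scalings and 7 to 37 with 1 library left out, and those that fell numbered 8, but 9 and 11 with those scalings and 5 to 10 with 1 library left out. Mitochondrial RNA factors that rose numbered 7, but 2 and 1 with those scalings and 2 to 10 with 1 library left out, and 1 fell with pan-neuronal scaling. The cause of these shifts was not tested.

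The replicate numbers do not pair the samples by any label, and over all tested genes the deviations of same-numbered libraries correlated at -0.06. With the replicate block Mt-nd6 relative to the heavy strand was at -0.20 (adjusted p = 0.544), and 2 members fell (adjusted p = 0.018 for Mt-nd4 and 0.036 for Mt-nd6), as without it. Leaving out the Mt- rows from the scaling, as planned, also left 2. So did leaving out every mitochondrial row from the scaling, or Mt-co3 from the members, both chosen after the data were seen. Precision rests on 2 libraries per treatment, and counting error was not separated from the spread between them.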
